A study of Mus musculus with 2 samples.

Results

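The genes described here are 10 components of the dense-core vesicle, the organelle from which neurons and endocrine cells release peptides. They were taken by symbol from the count tables of a mouse study of dry-skin itch, and all 10 had a single row among the 23282 rows of each table. They comprise 4 granins (Chga, Chgb, Scg2 and Vgf), 3 granin-like proteins that sort cargo or hold the convertases in check (Scg3, Scg5 and Pcsk1n) and 3 enzymes that cut and trim prohormones (Pcsk1, Pcsk2 and Cpe). The control group was wild-type (WT) mice treated with water. The other group was WT mice given acetone, ether and then water (AEW), a procedure that dries the skin, for 5 consecutive days, with dorsal root ganglia taken on day 6. Sensory neurons that innervate skin and deeper tissue have their cell bodies in these ganglia. The sources used here do not give the age, sex or strain background of the mice. The design text states that RNA of 6 AEW and 6 control mice was pooled, and each group has 1 library, so differences between animals cannot be seen, no p-value can be given, and the treatment cannot be told apart from dissection or library preparation.

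Granins are acidic, calcium-binding proteins that condense in the secretory pathway and help to form dense-core vesicles, and several of them are themselves cut into bioactive peptides. Within the vesicle, the convertases encoded by Pcsk1 and Pcsk2 cleave prohormones at paired basic residues and carboxypeptidase E (Cpe) then removes the exposed basic residues. In sensory neurons the same vesicles carry neuropeptides such as calcitonin gene-related peptide and substance P, which act in pain, itch and neurogenic inflammation.

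A further feature that ties some of these genes together is the cAMP response element, the DNA sequence bound by CREB-family transcription factors. RefSeq promoter windows on GRCm38.p6, which run from 250 bases before the transcription start to 50 after it, were found for 8 of the 10 genes. The full element TGACGTCA, which reads the same on both strands, was present in 3 of these 8 windows (Scg2, Chgb and Pcsk1) and in 1.79% of all 32851 windows. Its core TGACG, searched on both strands and contained in every full element, was present in 7 of the 8 windows and in 20.8% of all windows. Pcsk1n was the gene without it, and Vgf and Cpe had no window. The 4 sequences below show the element or its core in genes that differed by unlike amounts between the libraries, and the last is a stretch of the Pcsk1n window, which has neither. They are RefSeq sequences on GRCm38.p6, written 5′ to 3′ on the gene's strand, with the element and its core in capitals. Stretches that GENCODE M21 annotates as exon were left out or limited to 30 bases around the element.
Scg2, chr1:79440076-79440105, minus strand: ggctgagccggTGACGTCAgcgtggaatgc
Chgb, chr2:132781559-132781588, plus strand: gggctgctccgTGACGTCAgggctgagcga
Pcsk1, chr13:75089737-75089825, plus strand: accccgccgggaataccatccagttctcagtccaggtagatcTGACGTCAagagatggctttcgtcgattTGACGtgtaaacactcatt
Chga, chr12:102554821-102554940, plus strand: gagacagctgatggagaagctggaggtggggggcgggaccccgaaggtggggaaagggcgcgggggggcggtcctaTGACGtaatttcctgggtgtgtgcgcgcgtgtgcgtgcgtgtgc
Pcsk1n, chrX:7919702-7919821, plus strand: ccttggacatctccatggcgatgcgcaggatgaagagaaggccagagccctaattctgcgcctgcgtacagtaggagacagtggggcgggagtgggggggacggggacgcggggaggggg

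The full element began 68 bases before the RefSeq start in Scg2, 72 in Chgb and 78 in Pcsk1, and the core in Chga began 44 bases before the start. A further 3 motifs were searched on both strands. The GC box GGGCGG was in 6 of the 8 windows and 35.7% of all windows. The letters of the TATA box, TATAAA, were in 1 (Chga) and 13.6%, and in Chga they began 5 bases after the start. TTCAGCACC, a part of the site of the repressor REST, was in 1 (Scg2) and 0.371%. Shares of all windows were not limited to measured genes. A match describes the letters in the window and does not show that a factor binds there.

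Values are given below with water (the control library) and with AEW. The libraries differed in depth, with 9333882 counts with water and 14376228 with AEW. Counts were therefore scaled to CPM (counts scaled to a common library size of 1000000), with the library size adjusted by the trimmed mean of M-values (TMM), and each AEW to control ratio carries a 95% interval (exact Clopper-Pearson) that covers counting error only. A gene was called higher or lower when the ratio was at least 1.5-fold in either direction and the interval excluded 1, among the 14854 genes with 1 row and a summed count of at least 20. On this rule 17.3% of those genes were higher with AEW and 14.9% lower.

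Called higher with AEW were 6 of the 10 genes, with none lower and 4 neither, whereas scaling on pan-neuronal markers gave 0 higher and 2 lower. That scaling called 2.97% of all measured genes higher and 66.3% lower. The 6 called with TMM scaling were Pcsk1n, Vgf, Chga, Pcsk2, Scg3 and Pcsk1, from 2.59-fold down to 1.77-fold. Scg2 and Chgb lay just below the threshold, and Scg5 and Cpe, the most abundant of the 10 by CPM, differed least. At 2-fold, 3 of the 10 were called higher, against 8.23% of all measured genes higher and 6.85% lower. When the interval had to exclude 1.5-fold, the 6 were all called, against 8.93% of measured genes higher and 7.21% lower. The median log2 ratio of the 10 was 0.88, that of all measured genes 0.03 and that of 22 pan-neuronal markers 0.91. In bulk tissue, a different number of neurons and a different amount of RNA per neuron cannot be told apart.

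**Figure D1:**
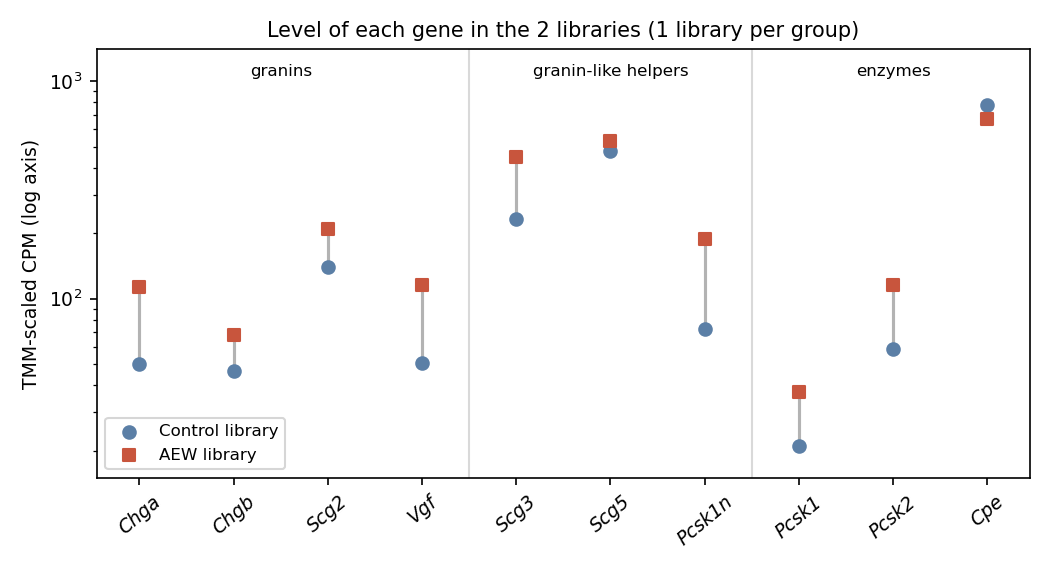
Level of the 10 genes as TMM-scaled CPM (vertical log axis) in the control library (circles) and the AEW library (squares), with 1 library per group and a grey line joining the 2 values of a gene. The AEW value lies above the control value for 9 genes and below it for Cpe.

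Among the granins, Chga encodes chromogranin A, the precursor of peptides such as vasostatin and catestatin (ENSMUSG00000021194.6, chromosome 12, 102554969 to 102565028, plus strand, GRCm38). It had 453 counts, or 50.03 CPM, with water and 1670 counts, or 112.7 CPM, with AEW. The ratio was 2.25-fold (2.03 to 2.50). Chgb, which encodes chromogranin B (ENSMUSG00000027350.8, chromosome 2, 132781278 to 132795079, plus strand), had 420 counts and 46.4 CPM with water and 1007 counts and 67.9 CPM with AEW. Its ratio of 1.46 (1.31 to 1.65) was below the threshold. Both chromogranins were thus almost equal in count in the control, with a Chga to Chgb ratio of 1.08, and apart in the AEW library, where it was 1.66. This change in the balance, 1.54-fold (1.31 to 1.80), does not depend on how the libraries are scaled.

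Vgf encodes a granin-like precursor whose transcription is induced by nerve growth factor and whose peptides act in pain pathways (ENSMUSG00000037428.14, chromosome 5, 137026392 to 137033351, plus strand). It had 458 counts and 50.6 CPM with water and 1705 counts and 115.04 CPM with AEW, a ratio of 2.27 (2.05 to 2.53). Scg2, the precursor of secretoneurin (ENSMUSG00000050711.7, chromosome 1, 79434669 to 79440120, minus strand), had 1263 counts and 139 CPM with water and 3098 counts and 209 CPM with AEW. Its ratio of 1.499 (1.40 to 1.60) was the value nearest to the threshold on either side, and the gene was called higher under 4 of the 12 other settings tried. The Vgf to Scg2 count ratio was 0.363 with water and 0.550 with AEW, a change of 1.52-fold (1.34 to 1.72). Corrected for GC content of the last 500 transcript bases, the log2 ratios of Vgf and Scg2 were 0.88 and 0.80. With TMM alone they were 1.19 and 0.58. Summed over the 4 granins, the level was 286.5 CPM with water and 505 CPM with AEW.

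Of the granin-like proteins, Pcsk1n encodes proSAAS, an inhibitor of the PCSK1 convertase that also yields peptides of its own (ENSMUSG00000039278.10, chromosome X, 7919822 to 7924410, plus strand). It had 657 counts and 72.6 CPM with water and 2790 counts and 188 CPM with AEW. Its ratio of 2.59 (2.38 to 2.83) was the highest of the 10, and 4.71% of measured genes had a higher one. Scg3 encodes secretogranin III, which binds chromogranin A and the vesicle membrane and helps to sort cargo (ENSMUSG00000032181.7, chromosome 9, 75643189 to 75684056, minus strand). It had 2096 counts and 231 CPM with water and 6599 counts and 445 CPM with AEW, a ratio of 1.92 (1.83 to 2.02). Scg5 encodes the chaperone that the PCSK2 convertase needs to become active (ENSMUSG00000023236.7, chromosome 2, 113776362 to 113829121, minus strand). It had 4333 counts and 479 CPM with water and 7854 counts and 529.9 CPM with AEW, a ratio of 1.11 (1.07 to 1.15) that was not called.

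The 3 enzymes also went apart. Pcsk1 (ENSMUSG00000021587.5, chromosome 13, 75089826 to 75134861, plus strand) had the fewest counts of the 10, with 191 counts and 21.1 CPM with water and 554 counts and 37.4 CPM with AEW. The ratio was 1.77-fold (1.501 to 2.10). Pcsk2 (ENSMUSG00000027419.9, chromosome 2, 143546156 to 143816285, plus strand) had 532 counts and 58.8 CPM with water and 1704 counts and 115 CPM with AEW, a ratio of 1.96 (1.77 to 2.16). Cpe (ENSMUSG00000037852.8, chromosome 8, 64592542 to 64693054, minus strand) had 7060 counts and 779.8 CPM with water and 9938 counts and 671 CPM with AEW. Its ratio of 0.86 (0.83 to 0.89) was the single value below 1 among the 10 genes, and it was not called. The summed level of the 3 enzymes, of which Cpe was the largest part, was 859.6 CPM with water and 823 CPM with AEW, although both convertases were called higher.

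**Figure D2:**
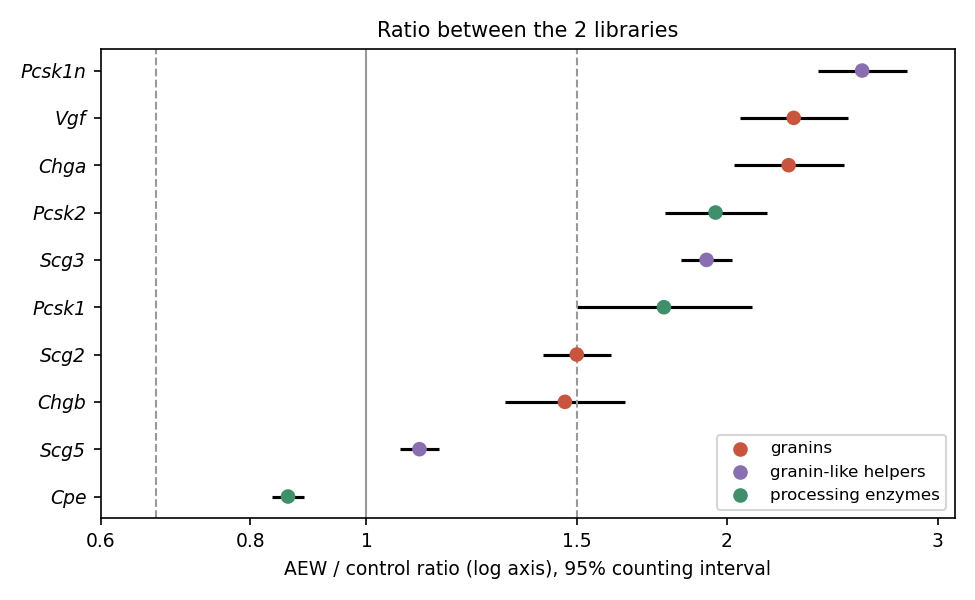
AEW to control ratio of each gene on a log axis (points, coloured by role), with bars for the 95% counting interval, a solid line at a ratio of 1 and dashed lines at 1.5-fold higher and lower. The intervals of Pcsk1n, Vgf, Chga, Pcsk2, Scg3 and Pcsk1 lie above 1.5, whereas those of Scg2 and Chgb span it and those of Scg5 and Cpe lie between the dashed lines.

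Ordered by ratio, the genes formed a graded series with 2 steps beyond counting error, both at its lower end. For each pair of neighbours in that order the quotient of their counts was compared between the libraries, which cancels any scaling factor. From Pcsk1n down to Chgb, none of the 7 neighbouring pairs had an interval that excluded 1. Pcsk1n and Vgf, for example, differed by 1.14-fold (0.995 to 1.31) and Vgf and Chga by 1.01-fold (0.870 to 1.17). The step from Chgb to Scg5 was 1.32-fold (1.17 to 1.49) and that from Scg5 to Cpe 1.29-fold (1.23 to 1.35). Over all 45 pairs, 36 had an interval that excluded 1, without adjustment for the number of pairs. Because the order was set by these same ratios, small steps between neighbours follow from the sorting. After a correction for GC content of the whole transcript the order changed, with the log2 ratio of Pcsk1 (1.09) above that of Vgf (0.88).

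Partners known to bind or to act in sequence did not all keep their balance. The inhibitor Pcsk1n had 3.44 counts for each count of its enzyme Pcsk1 with water and 5.04 with AEW, a change of 1.46-fold (1.21 to 1.77). The chaperone Scg5 had 8.14 counts for each count of its client Pcsk2 with water and 4.61 with AEW, so that the quotient in the AEW library was 0.57 (0.51 to 0.63) of that in the control. Scg3 to Cpe moved from 0.297 to 0.664, a change of 2.24-fold (2.11 to 2.37), and Scg3 to Chga from 4.63 to 3.95, a quotient of 0.85 (0.76 to 0.96). For the 2 convertases, the Pcsk1 to Pcsk2 ratio was 0.359 with water and 0.325 with AEW, and the interval of the quotient (0.75 to 1.10) included 1. These intervals compare the 2 libraries and not the treatments. A correction for GC content acts gene by gene and was not applied to the quotients. With that of the whole transcript, the log2 ratios of Pcsk1n and Pcsk1 were 1.21 and 1.09, against 1.38 and 0.83 with TMM. Those of Scg5 and Pcsk2 were 0.16 and 1.005, against 0.15 and 0.97. Those of Scg3 and Chga were 0.99 and 0.98, against 0.94 and 1.17, so that this pair no longer stood apart. With GC content of the last 500 bases, the values were 1.47 and 1.10 for Pcsk1n and Pcsk1 and 0.23 and 1.20 for Scg5 and Pcsk2. For Scg3 and Chga they were 0.98 and 0.98. The 2 corrections thus left unlike gaps between Pcsk1n and Pcsk1.

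The make-up of the whole set shifted accordingly. The 10 genes together had 17463 counts in the control, 0.187% (0.184 to 0.190) of the library, and 36919 counts in the AEW library, 0.257% (0.254 to 0.259). Cpe made up 40.4% (39.7 to 41.2) of these counts with water and 26.9% (26.5 to 27.4) with AEW, and Scg5 24.8% (24.2 to 25.5) and 21.3% (20.9 to 21.7). Scg3 took 12.0025% (11.5 to 12.5) with water and 17.9% (17.5 to 18.3) with AEW. Pcsk1n took 3.76% (3.48 to 4.06) and 7.56% (7.29 to 7.83).

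**Figure D3:**
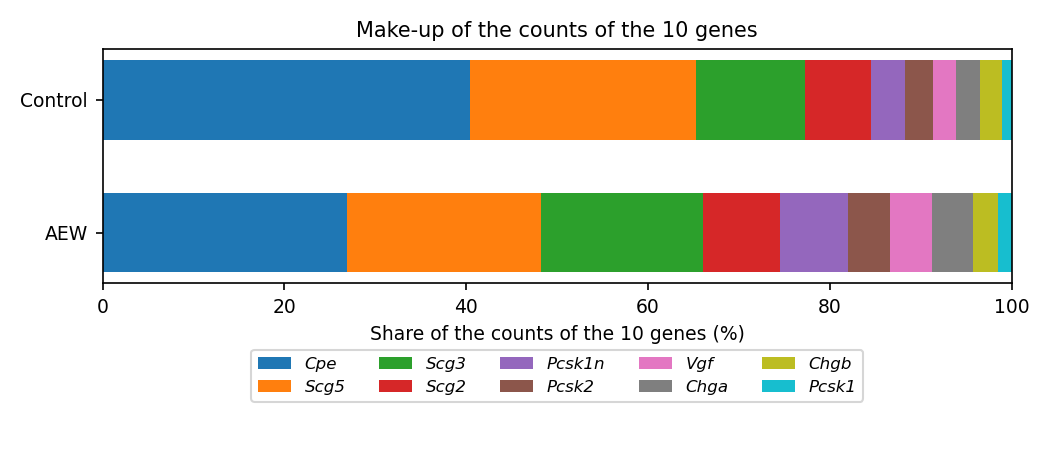
Share of the counts of the 10 genes that each gene takes (horizontal axis, percent) in the control library (upper bar) and the AEW library (lower bar). Cpe shrinks from 40.4% to 26.9% while Scg3 and Pcsk1n widen.

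If reads cover whole transcripts, levels of different genes can be set side by side only per transcript length. The longest GENCODE M21 transcript was used. On that scale of CPM per kilobase, the order in the control was Scg5 (396), Cpe (368), Scg3 (97.1), Scg2 (55.5), Pcsk1n (33.1), Chga (26.6), Vgf (17.8), Chgb (16.9), Pcsk2 (12.4) and Pcsk1 (4.19). In the AEW library the order was the same except that Pcsk1n (85.8) stood above Scg2 (83.1). Levels therefore covered a wide range within this one pathway, with the chaperone and the trimming enzyme far above both convertases. The labels' protocols name a Lexogen Quant-Seq kit. No division by length applies if a library samples only transcript 3′ ends, and the sources used here do not say whether these libraries did. The order per kilobase holds only if they did not. By CPM alone Cpe ranked above Scg5 in both libraries and Scg2 stayed above Pcsk1n with AEW (209 and 188 CPM). Pcsk2 then ranked 6 with water and 7 with AEW, where per kilobase it ranked 9 in both.

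Markers of neurons moved in the same direction as most of the 10 genes. Of 22 pan-neuronal markers, 14 were called higher (63.6%, against 17.3% of all measured genes), none lower (against 14.9%) and 8 neither. Their summed level was 10780 CPM with water and 16940 CPM with AEW. Their own ratios ran from 0.86 for Map2, a dendritic microtubule protein, and 1.05 for Gap43, a growth cone protein, up to 2.78 for Mapt, which encodes tau, and 3.31 for the neuronal splicing factor Rbfox3. The 10 genes thus spread over 0.86 to 2.59 and lay within the span of these markers.

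Set against the summed counts of the 22 markers, which again cancels the scaling, 5 genes had a quotient whose interval lay above 1. Pcsk1n had 6.73 counts per 1000 marker counts with water and 11.1 with AEW, 1.65-fold higher (1.52 to 1.80). The quotients were 1.45 (1.30 to 1.61) for Vgf, 1.43 (1.29 to 1.59) for Chga, 1.25 (1.13 to 1.38) for Pcsk2 and 1.22 (1.16 to 1.29) for Scg3. Those of Pcsk1, Scg2 and Chgb had intervals that included 1. Scg5 at 0.70 (0.68 to 0.73) and Cpe at 0.55 (0.53 to 0.56) lay below it. When the median rather than the sum of the markers was set to a ratio of 1, the 1.5-fold rule called 0 of the 10 genes higher. It called 2 lower (Scg5 and Cpe), against 2.97% of measured genes higher and 66.3% lower. The quotients to the sum were read by their intervals alone. By log2 interval, Pcsk1n at 0.46 (0.34 to 0.59), Vgf at 0.27 (0.12 to 0.43) and Chga at 0.26 (0.11 to 0.41) stayed above 0. The intervals of Pcsk2 at 0.057 (-0.084 to 0.20), Scg3 at 0.032 (-0.039 to 0.10) and Pcsk1 at -0.086 (-0.33 to 0.16) included 0. Intervals lay below 0 for Scg5 (-0.76), Cpe (-1.13), Scg2 (-0.33) and Chgb (-0.36), of which Cpe was also below 0 with TMM. That scaling moved the median of all measured genes from 0.03 to -0.88 on the log2 scale.

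**Figure D4:**
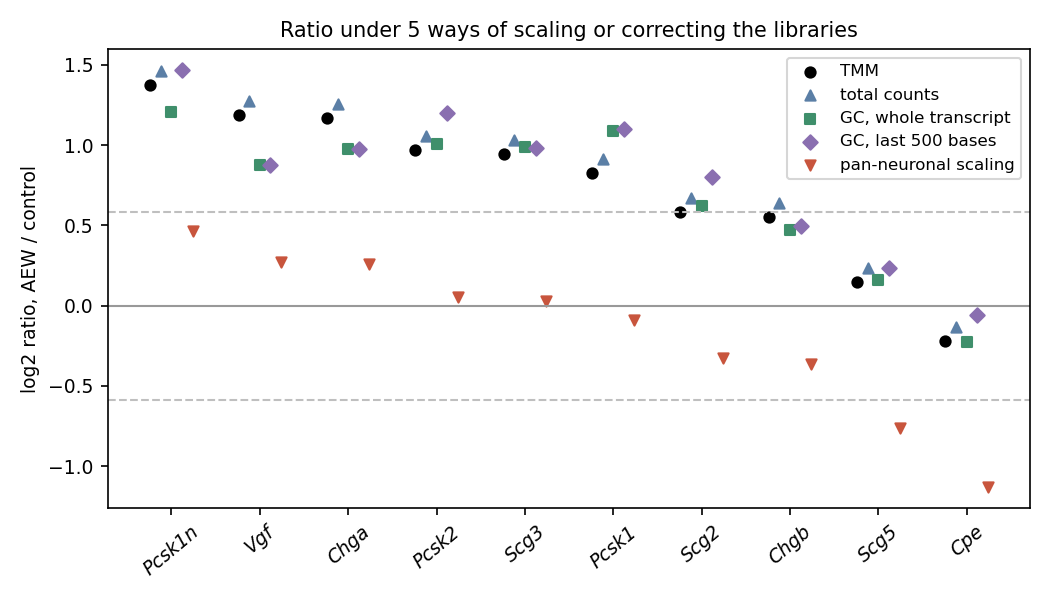
Log2 ratio of each gene (vertical axis, AEW over control) with TMM scaling, total counts, a correction for GC content of the whole transcript or of its last 500 bases, and scaling on the median of the pan-neuronal markers, with dashed lines at 1.5-fold. Neuronal scaling lowers each log2 ratio by 0.91, which places the 3 highest genes between 0.26 and 0.46 and Cpe at -1.13.

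The labels give the cell type as neurons, and the libraries also held transcripts of other cells. Schwann cell markers took 1.94% of control and 1.75% of AEW counts and satellite glia markers 1.05% and 0.916%, with 2 of 10 and 2 of 8 measured markers called lower. Macrophage markers were lower in 12 of 12 (824 CPM summed in the control, 302 CPM in the AEW library) and fibroblast markers in 4 of 8 (14584 and 7029 CPM), with no marker at 0 in either list. Of 9 measured spinal cord markers, 4 were called lower. Over all measured genes, 17.3% were called higher and 14.9% lower. Of 11 sensory ganglion identity genes, all present in both libraries, 7 were called higher, 1 lower and 3 neither. Avil, which encodes advillin, was 2.36-fold higher (2.24 to 2.48). The receptor gene Ret was 1.57-fold lower (1.47 to 1.67) at 1804 and 1883 counts, and the sodium channel gene Scn11a had a ratio of 1.32 (1.25 to 1.39). Epidermal and hair keratin and envelope genes were higher in 13 of 13, with 163 counts summed with water and 12507 with AEW. In that order Krt5 had 1 and 1336 counts, Krt14 1 and 1218, Krt10 127 and 1703 and Lor 13 and 1018. Krt31, Ivl and Dsg1a, named because they were at 0 in the control, were chosen after their values were seen. Whether these shifts in tissue make-up took part in the differences of the 10 genes was not tested.

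Other cell types rich in granins were looked for by their markers. Merkel cells are skin cells that hold dense-core vesicles, and of their markers, named here for low counts after their values were seen, Atoh1 had 0 counts in both libraries, Krt18 0 and 2, Krt8 3 and 1 and Krt20 1 and 5 in the control and AEW library. The 2 measured genes of that list, Sox2 (235 and 273 counts) and Rab3c (1822 and 3040 counts), were called neither. Sympathetic and chromaffin cells are another source, and there Pnmt had 0 counts in both libraries and Dbh 2 and 5, both also chosen after their values were seen. A count of 0 allows up to 3 counts at a 1-sided 95% bound, unlike the 2-sided intervals given elsewhere. Of the 7 measured genes in this list 3 were called higher (42.9%), 1 lower (14.3%) and 3 neither, beside 17.3% and 14.9% of all measured genes. Summed levels of the list were 79.9 CPM with water and 184 CPM with AEW. The sum included Th, which some sensory neurons also express, at 36.8 and 126 CPM, and Gata3, with 2 and 220 counts. Phox2a was present in both libraries and not called, at 283 and 488 counts (31.3 and 32.9 CPM), and Gata2 was 3.098-fold lower (1.92 to 5.09) at 53 and 28 counts.

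The rest of the dense-core vesicle machinery was next compared. Of 35 listed genes for vesicle membrane, assembly and release, 33 had a row and were measured. Of the 33, 15 were called higher (45.5%, against 17.3% of all measured genes), 3 lower (9.09%, against 14.9%) and 15 neither. Their median log2 ratio was 0.33. The highest by the lower bound of the interval were Resp18, a granule protein of endocrine cells and neurons, at 2.74-fold (2.35 to 3.20), and Syt7, a calcium sensor for release, at 2.20-fold (2.08 to 2.32). Resp18 had 205 and 919 counts and Syt7 1638 and 5895 in the control and AEW library. Ptprn, the vesicle membrane protein IA-2, chosen after its values were seen, had 583 and 1968 counts and a ratio of 2.06 (1.88 to 2.27). At the other end, Ccdc186, which takes part in vesicle maturation, was 3.03-fold lower (2.48 to 3.73) with 278 and 150 counts, and Arfip1, a Golgi protein, 1.52-fold lower (1.38 to 1.68). The list as a whole thus held genes that differed in both directions. When the interval had to exclude 1.5-fold, 8 were called higher and 1 lower, beside 8.93% and 7.21% of all measured genes. Scaling on the pan-neuronal markers gave 0 higher and 16 lower of the 33. That scaling called 2.97% of all measured genes higher and 66.3% lower.

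Other enzymes of the secretory pathway act beside the 3 described. Of 6 measured members of the convertase family outside the set, 1 was higher (16.7%), 1 lower (16.7%) and 4 neither. These shares were close to the 17.3% and 14.9% of all measured genes. The median was 0.03 in log2. Pcsk7, a convertase of the secretory pathway, was 1.96-fold higher (1.501 to 2.58) at 74 and 237 counts, and Furin, the widely expressed convertase of the trans-Golgi, 1.57-fold lower (1.38 to 1.78) at 487 and 509 counts. Furin was not called under total count scaling. The site-1 protease Mbtps1 had a ratio of 1.04 (0.97 to 1.12) and Pcsk5 of 0.75 (0.61 to 0.94).

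Of 13 genes for other trimming, amidation and related steps, 4 were higher (30.8%), 2 lower (15.4%) and 7 neither. All measured genes had 17.3% higher and 14.9% lower. The median was 0.28 in log2. The membrane carboxypeptidase Cpm was 3.57-fold higher (2.51 to 5.20) at 37 and 216 counts and the aminopeptidase Rnpep 2.56-fold higher (2.01 to 3.30) at 83 and 348 counts. The carboxypeptidase-like proteins Cpxm2 and Cpxm1 were 2.66-fold (2.26 to 3.15) and 1.55-fold (1.12 to 2.16) lower. Pam, the enzyme that amidates peptides after the action of Cpe, chosen after its values were seen, had 914 and 1820 counts and a ratio of 1.22 (1.12 to 1.32), which was not called.

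The cargo of the vesicles differed in both directions. Of 26 measured peptide and neurotrophin precursors, 6 were higher (23.1%), 9 lower (34.6%) and 11 neither, beside 17.3% and 14.9% of all measured genes. The median was 0.13 in log2, whereas the summed counts had a ratio of 0.89 (0.88 to 0.90), below 1. Cartpt, the precursor of the CART peptides, was 2.02-fold higher (1.77 to 2.31), and Sst, somatostatin, 4.71-fold higher (3.39 to 6.69). The precursors of neurotensin (Nts) and corticotropin-releasing hormone (Crh) were 6.74-fold (6.15 to 7.39) and 15.7-fold (9.22 to 28.8) lower. The 2 abundant nociceptor precursors, named after their values were seen, were not called, with ratios of 0.91 for Calca and 1.40 for Tac1. Summed over the list, precursors had 4042 CPM with water and 3586 CPM with AEW, whereas the 10 granin and processing genes had 1929 and 2491 CPM. The precursor list is dominated by Calca, with 19823 of 36593 counts in the control.

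**Figure D5:**
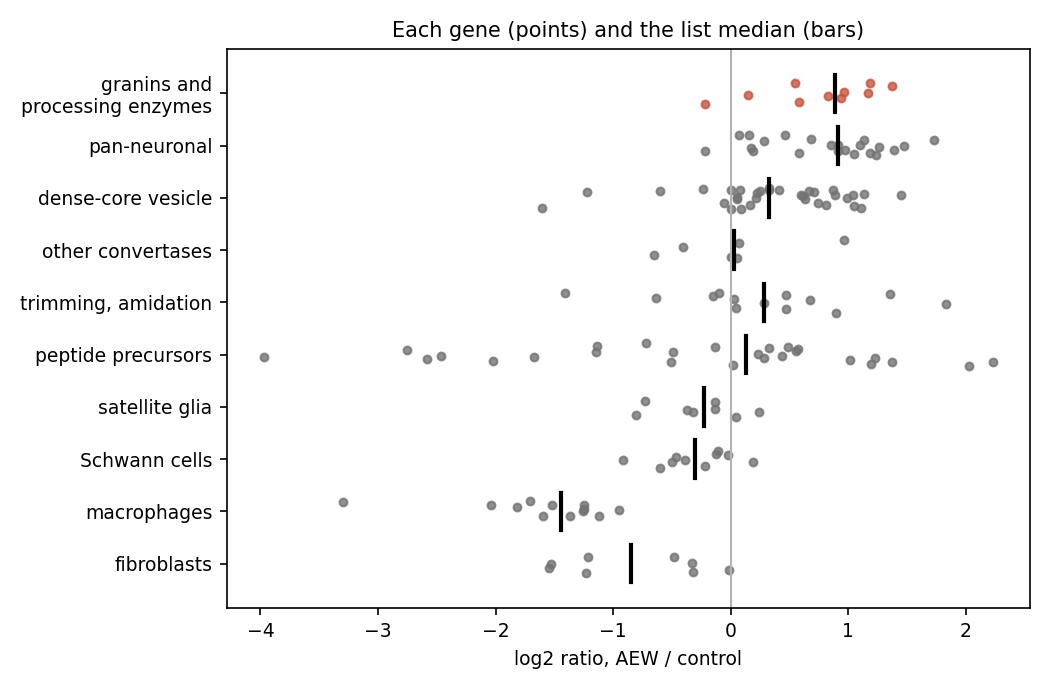
Log2 ratio (AEW over control, horizontal axis) of every measured gene in 10 lists (points, with vertical scatter for legibility), with a black bar at each list's median. The granins and processing enzymes, with a median of 0.88, lie beside the pan-neuronal markers at 0.91, whereas peptide precursors spread from -3.97 to 2.24 around a median of 0.13.

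Promoter content can be set beside these differences. Measured genes whose window held the full cAMP response element numbered 374, of which 17.1% were called higher and 11.5% lower, beside 17.3% and 14.9% of all measured genes. For the core TGACG the shares were 16.1% and 11.0% of 3751 genes, for the GC box 16.3% and 11.9% of 7371 and for the TATA box 21.7% and 19.2% of 1098. For TTCAGCACC, found in Scg2, they were 29.3% and 8.62% of 58 genes, with a median log2 ratio of 0.27. These shares are descriptions with no test. Of the 3 genes of the set with that element, Pcsk1 was called higher and Scg2 and Chgb were not. Pcsk1n, with the highest ratio, had neither the element nor its core in the window.

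The reads of 2 of the genes can overlap those of an antisense neighbour, and the sources used here do not say whether counting used strand. Pcsk1n shares 135 exonic bases with Eras, which had 4 and 5 counts, and Pcsk2 shares 260 with Pcsk2os1, which had 49 and 84, and 99 with Pcsk2os2, which had 0 and 1. The longest transcripts of the other 8 genes shared no stretch of 50 bases with transcripts of another GENCODE M21 gene.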

How the data were processed

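RNA from dorsal root ganglia was sequenced as 1 control and 1 AEW library, made with a Lexogen Quant-Seq kit starting from 500 ng of RNA, per the labels' protocols. Bowtie2, bedtools and the mm10 build are named, per the submitters' processing notes. The sources used here do not give versions, annotation or the handling of multiply matching reads. The authors deposited unnormalized whole-number counts per gene symbol. The 35 symbols that stand on more than 1 row (79 rows) stayed in the totals and out of the calls.

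TMM factors came from edgeR 4.0.16 (R 4.3.3) and size factors for 1 alternative from DESeq2 1.42.0. CPM, ratios and intervals were computed with scipy 1.17.1. The quotients between genes are exact conditional odds ratio intervals. A test on simulated data of the AEW against control comparison (14865 genes) drew counts with counting error only. The rule found 97.0% of 100 genes set 2-fold higher and 91.0% of 100 set 2-fold lower, and it also called 147 unchanged genes. Variation between animals, dissections or library preparations was not simulated. The test therefore gives no rate of false calls for the real comparison. PCR copies are not independent molecules, so intervals cover counting error only.

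The 10 genes and the 19 lists (238 of 242 symbols matched a row) were chosen with earlier results of these data known. Named genes are the 10, and per described list the 2 with the highest lower bound and the 2 with the lowest upper bound. Glia, macrophage, fibroblast and spinal cord markers are given as list values only, and any other gene was chosen after its values were seen. Some genes that the rule or the lists hold are not reported here. A total of 12 alternatives were run.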

Additional observations from a re-analysis of the deposited data

How the results depend on the processing

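With 1 library per group, no difference has a replicate check, and depth limits precision most for Pcsk1. No paired analysis was possible because each group has 1 library and no test was made. Of the 12 alternatives, scaling on the median of the pan-neuronal markers changed most. It gave log2 ratios that were no longer called for Chga (0.26), Pcsk1n (0.46), Pcsk2 (0.057), Scg3 (0.032) and Vgf (0.27). Pcsk1 was no longer called either, at -0.086 with an interval (-0.33 to 0.16) that included 0. Scg5 reversed (-0.76, called lower), Cpe (-1.13) became a lower call and the median of the 10 genes was -0.027. Scg2 (-0.33) and Chgb (-0.36), not called either way, also changed sign. Counts of higher and lower calls were then 0 and 2 for the 10 genes, 0 and 4 for other convertases, 1 and 7 for trimming enzymes, 0 and 16 for vesicle genes, 1 and 15 for precursors, 0 and 8 for peptide-degrading enzymes and 0 and 14 for regulators. Of all measured genes, this scaling called 2.97% higher and 66.3% lower. At 2-fold, Pcsk1 (0.83), Pcsk2 (0.97) and Scg3 (0.94) were not called, and higher calls were 3 for the 10 genes, 0 for other convertases, 2 for trimming enzymes, 5 for vesicle genes and 1 for regulators, with 0 lower convertases, 1 lower trimming enzyme and 0 lower regulators. With an interval excluding 1.5-fold, higher and lower calls were 8 and 1 for vesicle genes, 2 and 1 for trimming enzymes and 0 and 1 for regulators. Precursors then had 3 higher calls and convertases 0 lower. Of all measured genes, 8.23% were higher and 6.85% lower at 2-fold, and 8.93% and 7.21% when the interval had to exclude 1.5-fold. Scg2 became a higher call with total counts (0.67), with the deeper library thinned to the depth of the other (0.59) and after correction for GC content of the whole transcript (0.62) or its last 500 bases (0.80), and Chgb with total counts (0.64). Total counts also gave 0 lower convertases, 1 lower trimming enzyme and 1 lower regulator. A summed count of at least 100 left 2 higher precursors. The lower peptide-degrading enzymes numbered 2 with DESeq2 size factors, upper quartile scaling, totals without the 10 most abundant rows, thinning and either GC correction. The GC correction on the last 500 bases left 1 lower regulator. For total counts, the summed count of at least 100 and the settings named after it, the share of all measured genes called was not computed. Counts under those settings therefore have no background beside them. Changes under a stricter rule follow from the rule. Those under pan-neuronal scaling follow from lowering every log2 ratio by 0.91. The cause of the other changes was not tested.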

Other observations

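Enzymes that break down released peptides are the step after those described above. Of 12 measured, 2 were called higher with AEW (16.7%), 1 lower (8.33%) and 9 neither, beside 17.3% and 14.9% of all measured genes. The median was -0.03 in log2. Mme, which encodes neprilysin, an enzyme that degrades substance P and other peptides, was 2.43-fold lower (2.17 to 2.72) with 797 counts with water and 537 with AEW. Thop1, a cytosolic and secreted oligopeptidase, was 2.46-fold higher (1.69 to 3.67) at 35 and 141 counts, and Ece2, an endothelin-converting enzyme of acidic compartments, 2.17-fold higher (1.64 to 2.92) at 63 and 224 counts. Ace, angiotensin-converting enzyme, had a ratio of 0.71 (0.55 to 0.91) and was not called.

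Of 18 measured regulators linked to granin genes, 2 were called higher (11.1%), 2 lower (11.1%) and 14 neither, beside 17.3% and 14.9% of all measured genes. The median was -0.24 in log2. Rest, which encodes a repressor of neuronal genes, was 1.99-fold lower (1.72 to 2.29) at 433 and 357 counts, and its corepressor Sin3a 1.52-fold lower (1.28 to 1.80) at 265 and 286 counts. Corepressors that REST also recruits went the other way, with Rcor1 1.67-fold (1.39 to 2.02) and Rcor2 2.07-fold (1.495 to 2.93) higher, at 158 and 433 and at 48 and 163 counts. No relation between these levels and those of the granin genes was tested, since 2 libraries allow none.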
